A study of Mus musculus with 6 samples.

Results

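Abca5, Abca6, Abca8a, Abca8b and Abca9 form a cluster of ATP-binding cassette transporter genes of the A subfamily on mouse chromosome 11, and their RNA was measured in stromal cells sorted from injured quadriceps muscle. The 5 genes were taken by symbol from the 55536 genes of the count files. They were proposed as a group after their p16+ and p16- levels had been seen, so all differences between p16+ and p16- cells in these 5 genes are descriptions and carry no test. All 5 passed the filter on low counts, which left 15903 genes. There were 3 libraries of p16+ and 3 of p16- cells, both from C57Bl/6 mice in which tdTomato reports expression of p16, a brake on the cell cycle that is encoded by Cdkn2a and often taken to mark senescent cells. Both groups were gated as CD45-, CD31- and CD29+ cells, and the p16+ cells carried tdTomato fluorescence while the p16- cells did not. Per the labels' protocols, quadriceps muscle was resected at 10 weeks of age under carprofen at 5 mg/kg, the gap received polycaprolactone particles (30 mg), decellularized matrix or saline (50 uL), and tissue was taken 1 or 6 weeks later. The sources used here do not give the filler or the time for these 6 libraries, nor whether they came from separate animals, so that any p-value measures only the spread between these samples.

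Transporters of the ABCA subfamily are large membrane proteins that use ATP to move lipids across or between the leaflets of a membrane. The best known, ABCA1, loads cellular cholesterol and phospholipid onto apolipoprotein A-I at the plasma membrane. The cluster genes arose by tandem duplication, are less well understood, and have been linked to cholesterol and sphingomyelin handling. Abca8a transcripts are also used as a marker of fibroblasts in mouse tissue atlases.

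Library totals lay between 35253406 and 37861713 counts in p16+ cells and between 36507067 and 39103909 in p16- cells. Cdkn2a, the gene behind the sort, had 7.82 ± 0.961 CPM (counts scaled to library size) in p16+ and 2.13 ± 0.329 CPM in p16- cells (SD, n = 3 each), and the groups did not overlap. On the second principal component, with 18.1% of the variance, p16+ replicates 2 and 3 stood far apart, at 38.22 and -46.65. The mesenchymal markers had the highest sum of the marker lists in every library: 9 of them summed to 120000 to 126000 CPM in p16+ and 75500 to 88700 CPM in p16- cells, with 5 higher and 2 lower in p16+. The collagen genes Col3a1 and Col1a1 carried this sum, with 69170 and 37830 CPM in p16+ and 44920 and 20410 CPM in p16- cells. The 2 lower genes were Dpt and Pi16. Markers of other cells were present at lower sums. The 10 glial markers summed to 48.0 to 62.9 CPM in p16+ and 107 to 177 CPM in p16- cells, with 8 of 10 lower in p16+ by the test described below. By that test 8.69% of all genes tested were higher and 8.04% lower, and the counts of every marker list stand beside these shares. The 10 macrophage and leukocyte markers summed to 269 to 308 CPM in p16+ and 193 to 218 CPM in p16- cells, with 4 of 10 higher. The 9 endothelial markers summed to 69.3 to 97.7 CPM in p16+ and 175 to 205 CPM in p16- cells, a sum carried by Tek, the angiopoietin receptor gene, which was lower in p16+ while 3 others were higher. The 8 mural cell markers summed to 1940 to 2020 CPM in p16+ and 1300 to 1660 CPM in p16- cells, with 5 higher. The 7 muscle lineage markers summed to 108 to 121 CPM in p16+ and 62.5 to 78.0 CPM in p16- cells, with 2 higher. Des, the desmin gene, carried this sum, with 90.27 CPM in p16+ and 52.15 CPM in p16- cells. The 6 adipocyte markers summed to 22.7 to 43.7 CPM in p16+ and 20.1 to 59.4 CPM in p16- cells, and 0 of the 4 tested passed by edgeR, with 2 at an unadjusted p under 0.05. No marker of these lists was at 0 in all 6 libraries, and the adipocyte genes Adipoq, Lep and Cidec were at 0 in some. In bulk RNA, fewer cells that express a gene and less RNA per cell cannot be told apart.

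The cluster spanned 405527 bases of chromosome 11, from 109932190 to 110337716 on GRCm38. In order of position it held Abca8b (ENSMUSG00000020620.14, 109932190 to 109995845), Abca8a (ENSMUSG00000041828.15, 110025634 to 110095978), Abca9 (ENSMUSG00000041797.7, 110100749 to 110168196), Abca6 (ENSMUSG00000044749.13, 110176820 to 110251776) and Abca5 (ENSMUSG00000018800.14, 110269369 to 110337716). All 5 lie head to tail on the minus strand with no annotated gene in the gaps between them, which measure 29788, 4770, 8623 and 17592 bases. The gene bodies are alike in build, with 38 or 39 exons after merging and coding sequences of 4860 bases for Abca8b and Abca8a, 4869 for Abca9, 4872 for Abca6 and 4926 for Abca5, without the stop codon. In the alignment of coding sequences, Abca8a and Abca8b were the closest pair, with 72.7% of 4847 aligned bases identical. Abca9 had 68.9% identity with both, Abca6 had 61.1% to 62.5% identity with these 3, and Abca5 was the most distant at 52.4% to 53.5%.

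Near-identical stretches decide whether reads of one gene can be counted for another, so shared sequence was measured in windows of 50 bases, the length of a read end. Of the transcript windows of Abca8b 1.42% also occurred in another cluster gene, as did 1.64% for Abca8a, 0.162% for Abca9, 0.243% for Abca6 and 0% for Abca5. The longest run of identical coding bases was 97 bases and was shared by Abca8a and Abca8b. It is shown in capitals with 30 bases on each side, from GENCODE vM21 transcripts, because it is the longest stretch in which the closest pair of the cluster cannot be separated.
Abca8a: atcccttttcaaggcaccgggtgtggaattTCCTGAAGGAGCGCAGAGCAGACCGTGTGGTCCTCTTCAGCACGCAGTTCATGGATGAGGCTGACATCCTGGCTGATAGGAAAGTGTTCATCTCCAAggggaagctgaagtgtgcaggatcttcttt
Abca8b: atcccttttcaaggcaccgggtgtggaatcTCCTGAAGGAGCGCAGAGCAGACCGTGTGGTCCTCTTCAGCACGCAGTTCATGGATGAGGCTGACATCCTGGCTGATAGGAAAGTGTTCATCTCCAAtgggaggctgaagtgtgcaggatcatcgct
Outside such stretches the genes have sequence of their own, and Abca9 and Abca6 shared at most 62 bases in a row. Of the exonic length of Abca8b 3.25% is overlapped on the opposite strand by Gm11697, which had 0 to 3 counts in each library, and the other 4 genes overlap none.

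The promoters are shown because the 5 genes lie side by side and differed between p16+ and p16- cells in the same direction. RefSeq promoter windows on GRCm38.p6 were found for 4 of the 5 genes, all but Abca6, and ran from 250 bases before to 50 bases after the transcript start. They are printed up to 28 bases after the start, 5′ to 3′ on the minus strand, with any CACGTG in capitals, the palindromic E-box bound by many basic helix-loop-helix factors.
Abca8a, chr11:110095909-110096187: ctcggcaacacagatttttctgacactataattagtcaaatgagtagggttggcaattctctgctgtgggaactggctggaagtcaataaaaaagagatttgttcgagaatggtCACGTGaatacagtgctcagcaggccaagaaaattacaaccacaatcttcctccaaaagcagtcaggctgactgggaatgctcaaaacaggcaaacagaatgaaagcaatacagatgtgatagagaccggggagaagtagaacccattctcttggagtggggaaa
Abca8b, chr11:109995817-109996095: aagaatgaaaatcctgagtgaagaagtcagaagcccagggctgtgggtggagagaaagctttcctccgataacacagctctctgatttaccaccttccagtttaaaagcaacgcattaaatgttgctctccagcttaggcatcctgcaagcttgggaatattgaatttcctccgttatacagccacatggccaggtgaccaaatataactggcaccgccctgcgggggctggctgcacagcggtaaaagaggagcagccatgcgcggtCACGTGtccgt
Abca9, chr11:110168125-110168403: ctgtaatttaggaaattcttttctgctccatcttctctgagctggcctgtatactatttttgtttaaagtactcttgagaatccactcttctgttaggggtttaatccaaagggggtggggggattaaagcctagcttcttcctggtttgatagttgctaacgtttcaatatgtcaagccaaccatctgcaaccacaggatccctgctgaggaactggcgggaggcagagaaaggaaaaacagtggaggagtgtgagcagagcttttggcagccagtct
Abca5, chr11:110337688-110337966: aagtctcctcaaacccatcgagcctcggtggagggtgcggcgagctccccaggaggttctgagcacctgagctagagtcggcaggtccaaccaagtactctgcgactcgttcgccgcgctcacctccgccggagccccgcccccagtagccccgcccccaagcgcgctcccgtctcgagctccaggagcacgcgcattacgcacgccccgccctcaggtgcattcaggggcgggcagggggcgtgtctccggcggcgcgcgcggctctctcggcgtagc
The E-box occurred once in the Abca8a window, at position -136 from the start, and once in the Abca8b window, at position 18, and in neither of the others. Of all 32851 promoter windows of this length 7.15% hold CACGTG. The E-box was chosen after these promoters had been seen, so its presence in them is a description and nothing is read from that share. Searched on both strands, none of the 4 windows held TATAAA (held by 13.6% of all windows), CCAAT (37.4%), the forkhead motif GTAAACA (3.65%), the AP-1 motif TGACTCA (5.2%) or the nuclear receptor half-site AGGTCA (16.3%). Base composition set Abca5 apart, with 72.3% G and C and 40 CpG dinucleotides. The windows of Abca8b, Abca9 and Abca8a had 51.3%, 45.3% and 44.3% G and C and 10, 2 and 4 CpG. The quartiles over all windows were 45.7% and 61.7% G and C and 3 and 20 CpG. The start sites of Abca8b and Abca5 in RefSeq equal the gene ends in GENCODE, while those of Abca8a and Abca9 lie inside them.

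All 5 genes were lower in p16+ than in p16- cells in every library, and the size of the difference ran from 1.29-fold for Abca5 to 2.47-fold for Abca8a. Of all genes tested, 33.1% had no overlap between the groups, 16.5% in that direction. By edgeR 16.7% passed the threshold of 0.05 on the adjusted p, 8.69% higher and 8.04% lower in p16+, so that 52% of the 2660 calls were higher, and 36% of 2941 with library sizes alone. Since the genes were proposed for this pattern, nothing is read from their number. Added up per length of transcript, the cluster stood at 71.1 ± 4.51 FPKM in p16+ and 156 ± 13.4 FPKM in p16- cells (SD, n = 3 each), a ratio of 0.455. FPKM here is CPM per kilobase of exonic length.

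**Figure D1:**
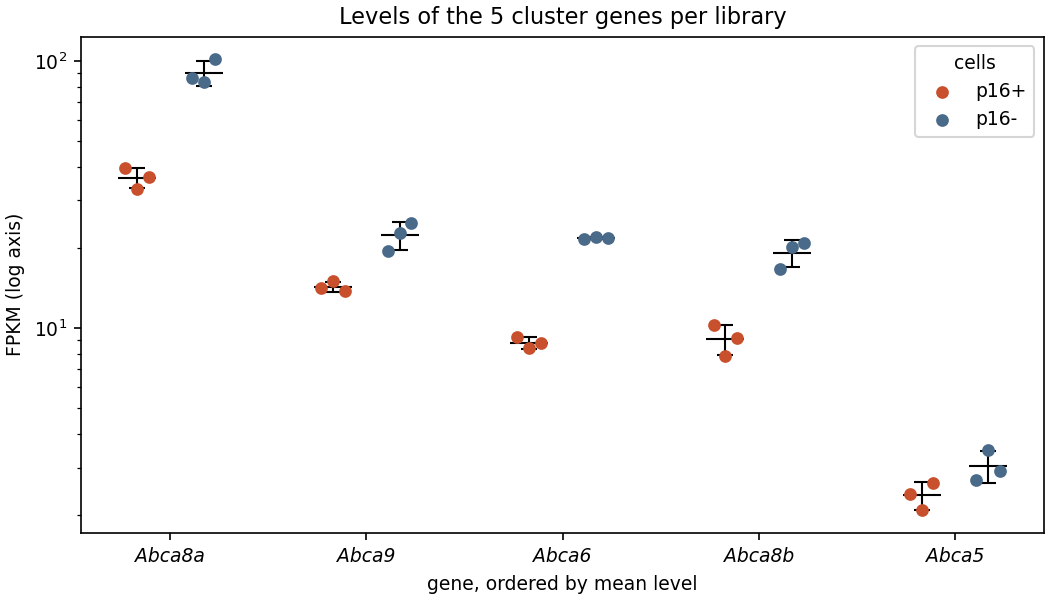
Levels of the 5 cluster genes in FPKM on a log axis, with 1 point per library, p16+ in orange and p16- in blue; horizontal bars are group means and error bars SD over 3 libraries. Abca8a is highest in each library, all 5 genes are lower in p16+ libraries, and the groups lie closest for Abca5, at 2.37 and 3.04 FPKM.

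Abca8a, whose human relative ABCA8 promotes cholesterol efflux, was the most abundant member. It had 248, 208 and 231 CPM in p16+ replicates 1, 2 and 3, against 541, 521 and 635 CPM in p16- replicates 1, 2 and 3. The highest p16+ library was below the lowest p16- library by more than the spread within either group. The fitted log2 fold change was -1.30 (SE 0.09), with 36.6 ± 3.2 FPKM in p16+ and 90.2 ± 9.73 FPKM in p16- cells (SD, n = 3 each). Abca8a exceeded 93.7% of the tested genes per length in p16+ and 97.4% in p16- cells. Levels of different genes do not show which cells made the RNA. The glial markers were also lower in p16+ libraries, with a median log2 fold change of -1.82. So were the mesenchymal markers Dpt and Pi16, while 5 of that list were higher. Tek was lower as well, while 3 other endothelial markers were higher. The part of any of these cells in the difference was not tested.

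Abca8b, its nearest relative in sequence, had 76.0, 58.5 and 68.1 CPM in the 3 p16+ libraries, against 123, 149 and 155 CPM in the 3 p16- libraries. The log2 fold change was -1.07 (SE 0.10). The p16+ libraries spread by 8.75 CPM and the p16- libraries by 16.8 CPM (SD), and the groups were further apart than that. Per length Abca8b reached 9.09 ± 1.18 FPKM in p16+ and 19.1 ± 2.26 FPKM in p16- cells (SD, n = 3 each). This was well below Abca8a in both groups.

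Abca6, which responds to cholesterol loading in human macrophages, varied little within either group. It had 50.1, 45.3 and 47.5 CPM in p16+ replicates 1, 2 and 3, against 116, 118 and 118 CPM in p16- replicates 1, 2 and 3. Both groups were tight, with SDs of 2.43 and 1.14 CPM. The log2 fold change of -1.30 (SE 0.08) was as large as that of Abca8a, although the coding sequences share 61.1% of bases and the genes are separated by Abca9.

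Abca9, also described as cholesterol responsive in human macrophages, lies between Abca8a and Abca6 and differed less. It had 113, 121 and 111 CPM in p16+ replicates 1, 2 and 3, against 156, 182 and 199 CPM in p16- replicates 1, 2 and 3. The groups did not overlap, and the log2 fold change was -0.64 (SE 0.09). It was 14.3 ± 0.63 FPKM in p16+ and 22.2 ± 2.69 FPKM in p16- cells (SD, n = 3 each).

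Abca5, a transporter of late endosomes and lysosomes, differed least. It had 27.4, 23.8 and 30.0 CPM in p16+ replicates 1, 2 and 3, against 31.0, 40.1 and 33.3 CPM in p16- replicates 1, 2 and 3. The highest p16+ and the lowest p16- library nearly met, so that the groups were separated by less than the spread within either. The log2 fold change was -0.36 (SE 0.12), and the level was 2.37 ± 0.275 FPKM in p16+ and 3.04 ± 0.413 FPKM in p16- cells (SD, n = 3 each).

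The members thus differed among themselves in the size of the difference, and not in order of position. From the lower to the upper end of the cluster the log2 fold changes were -1.07 for Abca8b, -1.30 for Abca8a, -0.64 for Abca9, -1.30 for Abca6 and -0.36 for Abca5, with a median of -1.07 beside -0.01 over all tested genes. Within each group the lowest library was the same for most of the genes but not for all. For Abca6 in p16- cells the libraries hardly differed, at 116 to 118 CPM, so this order is a description only. In p16+ cells replicate 2 was the lowest for Abca5, Abca6, Abca8a and Abca8b but the highest for Abca9. In p16- cells replicate 1 was the lowest for Abca5, Abca6, Abca8b and Abca9, and replicate 2 for Abca8a.

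The order of levels per length was led by Abca8a and closed by Abca5 in all 6 libraries. Abca9 came second in 5 libraries, while in p16- replicate 1 Abca6 was above it, at 21.5 and 19.4 FPKM. Abca6 and Abca8b changed places between libraries, and their means of 8.82 ± 0.449 and 9.09 ± 1.18 FPKM in p16+ and of 21.7 ± 0.21 and 19.1 ± 2.26 FPKM in p16- cells (SD, n = 3 each) lay close to or within the spread of Abca8b. In p16- cells Abca9 and Abca6 also lay within their spread, at 22.2 ± 2.69 and 21.7 ± 0.21 FPKM (SD, n = 3 each). By CPM alone, without division by length, the order Abca8a, Abca9, Abca8b, Abca6, Abca5 held in all 6 libraries.

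**Figure D2:**
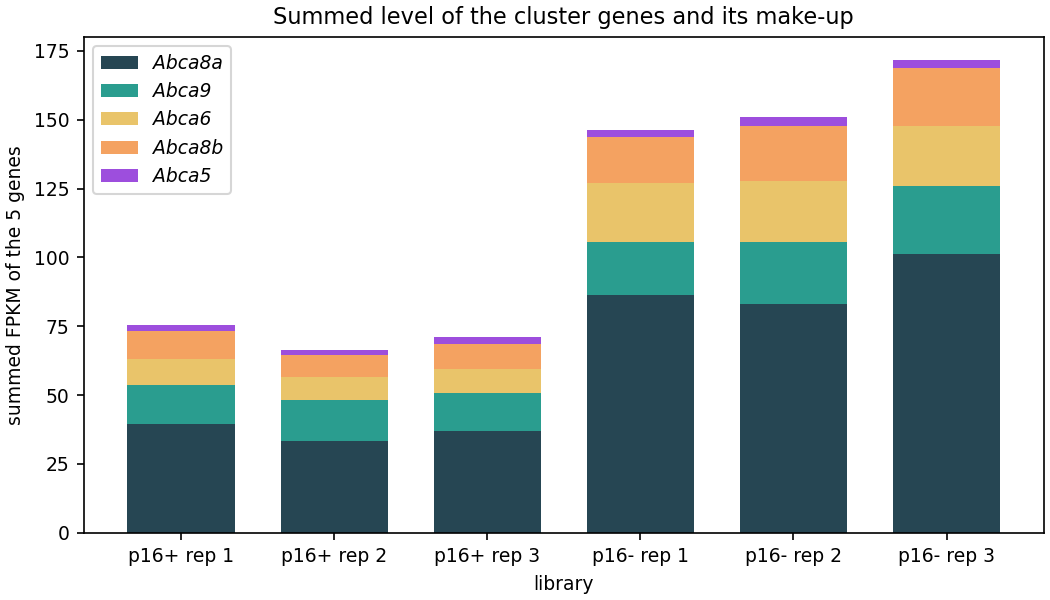
Stacked FPKM of the 5 cluster genes in each library, p16+ libraries on the left and p16- libraries on the right. The sums are 66.6 to 75.6 FPKM in p16+ and 146 to 172 FPKM in p16- libraries, and Abca8a is the largest part of each bar.

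The unequal differences left a different make-up of the summed cluster level. Abca8a made up 51.3% ± 1.29 of the summed FPKM in p16+ and 57.6% ± 2.28 in p16- cells (SD, n = 3 each). Abca9 made up 20.1% ± 2.08 in p16+ and 14.2% ± 0.874 in p16- cells, and Abca5 3.32% ± 0.31 and 1.96% ± 0.323. The share of Abca6 was 12.3% to 12.6% in p16+ and 12.7% to 14.7% in p16- libraries. For these 4 genes the shares did not overlap between the groups, for Abca6 by a narrow margin. That of Abca8b was 11.8% to 13.5% in p16+ and 11.3% to 13.2% in p16- libraries, which overlap. All shares are parts of the same sum, so the 4 separations are not independent of each other. The shares also come from the p16+ and p16- levels for which the genes were proposed. They are descriptions, and nothing is read from the number of genes without overlap.

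Among the genes around the cluster, chosen by position alone, Fam20a and Wipi1 rose in p16+ cells. Of 14 protein-coding genes within 1 Mb of either end, 9 passed the filter and were tested with edgeR's quasi-likelihood test, adjusted by the Benjamini-Hochberg method over all 15903 genes at a threshold of 0.05. Of these 9, 2 rose, 0 fell and 7 did not pass, with 4 of 9 at an unadjusted p under 0.05. Over all genes tested 8.69% rose and 8.04% fell, and nothing is read from so small a count. The nearest tested gene on the lower side is Fam20a, 209911 bases away, which encodes a pseudokinase of the secretory pathway and rose to 47.0 ± 0.947 CPM in p16+, against 36.4 ± 3.44 CPM in p16- cells (log2 fold change 0.37, SE 0.09, edgeR adjusted p = 0.00963). Wipi1, an autophagy gene 320223 bases away, rose to 130 ± 9.42 CPM in p16+, against 96.7 ± 13.4 CPM in p16- cells (log2 fold change 0.42, SE 0.10, edgeR adjusted p = 0.00636). The call of Fam20a was lost without p16- replicate 3 (edgeR adjusted p = 0.0645) and that of Wipi1 without p16+ replicate 3 (edgeR adjusted p = 0.0526).

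On the upper side the next gene is Map2k6, a kinase gene of the p38 pathway, 61406 bases beyond Abca5. It had 5.04 to 8.18 CPM in p16+ and 5.88 to 8.27 CPM in p16- libraries, which overlap almost entirely (log2 fold change -0.15, SE 0.21, edgeR adjusted p = 0.695). Kcnj2, a potassium channel gene, had 3.98 ± 0.84 CPM in p16+ and 3.27 ± 0.995 CPM in p16- cells (edgeR adjusted p = 0.576). Of the genes on the lower side, Prkar1a, a regulatory subunit gene of protein kinase A, had 311 ± 6.77 CPM in p16+ and 271 ± 7.77 CPM in p16- cells, without overlap (edgeR adjusted p = 0.0784). It was called higher by DESeq2 (DESeq2 adjusted p = 0.0191), and by edgeR with the replicate number as a block (edgeR adjusted p = 0.0431) and without p16- replicate 1 (edgeR adjusted p = 0.0283). Gna13, a G protein subunit gene, had 59.7 ± 0.466 CPM in p16+ and 69.1 ± 3.69 CPM in p16- cells, without overlap (log2 fold change -0.21, SE 0.08, edgeR adjusted p = 0.0711). It was called lower with library sizes alone (edgeR adjusted p = 0.0145) and with the block (edgeR adjusted p = 0.0497). Also on the lower side, Arsg, Slc16a6 and Amz2 had log2 fold changes of -0.06, -0.09 and 0.18 and overlapped between groups, and 23.5% and 24.4% of the exonic length of Slc16a6 and Amz2 is overlapped by other genes. Kcnj16 and 1700012B07Rik had no count in any library.

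**Figure D3:**
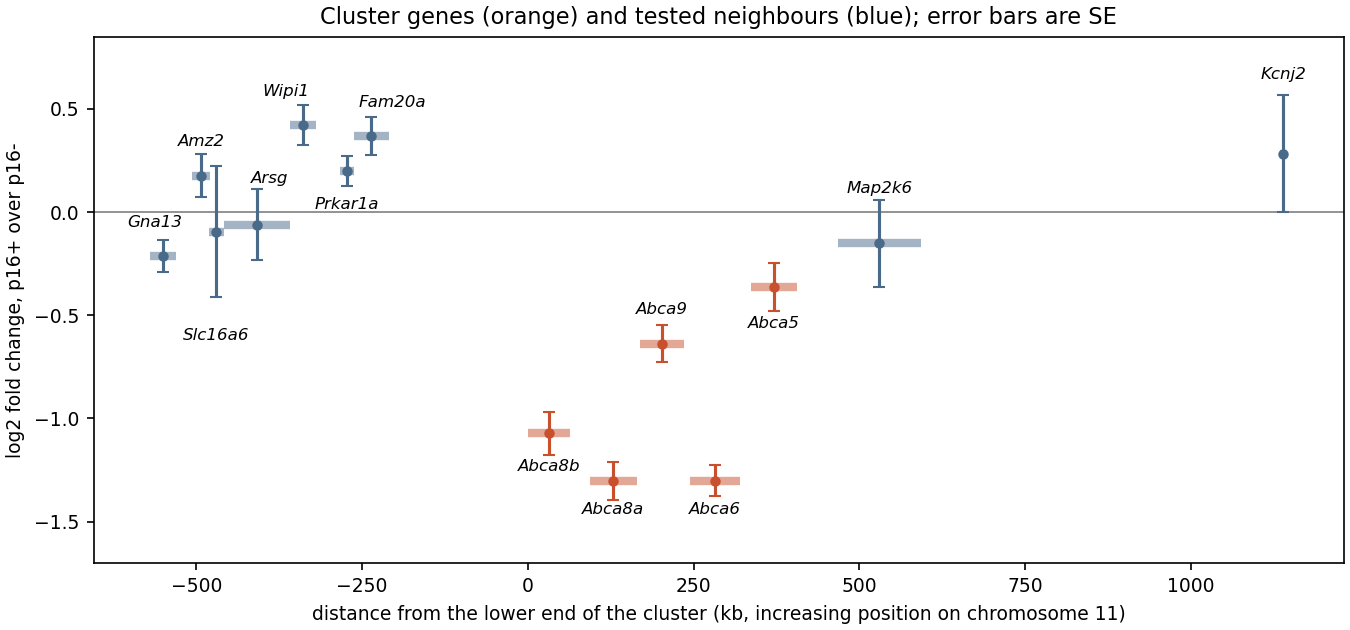
Log2 fold change (p16+ over p16-) of the cluster genes in orange and of the 9 tested protein-coding neighbours in blue, against distance in kb from the lower end of the cluster. Thick bars are gene bodies and error bars SE; the cluster genes lie between -1.30 and -0.36, and the neighbours between -0.21 and 0.42.

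Other transporters of the ABCA subfamily, encoded elsewhere, did not pass the test. Of 11 such genes 5 were tested, and 0 rose and 0 fell by edgeR, with 0 at an unadjusted p under 0.05 and 0 called by DESeq2. Over all genes tested 16.7% were called by edgeR, and nothing is read from so small a count. Abca1, the cholesterol and phospholipid exporter, had 224.5 ± 12.2 CPM in p16+ and 221.5 ± 32.7 CPM in p16- cells (log2 fold change 0.02, SE 0.10, edgeR adjusted p = 0.926), and its fold change was of the other sign with library sizes alone. Per length Abca1 stood at 21.7 ± 1.18 FPKM in p16+ and 21.4 ± 3.16 FPKM in p16- cells (SD, n = 3 each), below Abca8a in both groups and above the other 4 cluster genes in p16+ cells. Abca2, Abca3 and Abca7 had log2 fold changes of 0.01, -0.12 and -0.20. Abca7 was lower in p16+ without overlap, at 20.4 ± 2.22 CPM against 23.5 ± 1.00 CPM in p16- cells (edgeR adjusted p = 0.264). Of all genes tested, 16.5% had no overlap in that direction, and Abca1, Abca2 and Abca3 overlapped. Abca4, the retinoid transporter of photoreceptors, was low, with 271 counts over all libraries. It had 0.722 ± 0.637 CPM in p16+ and 1.65 ± 0.30 CPM in p16- cells, without overlap (edgeR adjusted p = 0.213). Without p16+ replicate 3 it fell past the threshold (edgeR adjusted p = 0.0491). Abca12, Abca14, Abca15 and Abca16 had no count in any library, where 3 counts correspond to 0.0767 to 0.0851 CPM.

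Among the lipid transporters of the other ABC subfamilies, Abcg1 rose and Abcd2 fell. Of 12 tested, 1 rose, 1 fell and 10 did not pass, the same share as the 16.7% called over all genes tested. Abcg1, which exports cholesterol to high-density lipoprotein, rose to 27.0 ± 0.0865 CPM in p16+, against 14.7 ± 0.862 CPM in p16- cells (log2 fold change 0.87, SE 0.11, edgeR adjusted p = 2.75e-05). Abcd2, a peroxisomal transporter of very long chain fatty acids, fell to 12.8 ± 1.07 CPM in p16+, against 20.2 ± 1.18 CPM in p16- cells (log2 fold change -0.65, SE 0.12, edgeR adjusted p = 0.00124). Abcd3, the most abundant of this list, had 61.7 ± 2.55 and 63.6 ± 2.94 CPM in p16+ and p16- cells (edgeR adjusted p = 0.754).

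Among 20 tested genes of cholesterol efflux and of the liver X receptor, a nuclear receptor activated by oxidized cholesterol, 3 rose, 3 fell and 14 did not pass, where 8.69% of all genes tested rose and 8.04% fell. The list's median log2 fold change was 0.05, beside -0.01 over all tested genes, and it shares Abca1 and Abcg1 with the transporter lists. Cyp27a1, the sterol 27-hydroxylase gene, fell to 6.58 ± 1.64 CPM in p16+, against 21.5 ± 4.98 CPM in p16- cells (log2 fold change -1.71, SE 0.20, edgeR adjusted p = 1.32e-05). Mylip, whose protein marks the low-density lipoprotein receptor for degradation, fell to 52.8 ± 3.17 CPM in p16+, against 67.1 ± 2.42 CPM in p16- cells (edgeR adjusted p = 0.00593). Pltp, a phospholipid transfer protein gene, rose to 119.9 ± 7.63 CPM in p16+, against 89.0 ± 12.6 CPM in p16- cells (edgeR adjusted p = 0.00522), and 19.3% of its exonic length is overlapped by Ctsa on the opposite strand. Abcg1, given above, also rose. The remaining calls, named after their values were seen, were Lipa, the lysosomal acid lipase gene, which rose (edgeR adjusted p = 0.00978), and Nr1h3, which encodes a liver X receptor and fell (edgeR adjusted p = 0.0289). The call of Nr1h3 was lost when any single library other than p16+ replicate 2 or p16- replicate 3 was left out. Npc2, the most abundant gene of the list over both groups, which binds cholesterol in lysosomes, had 351 ± 21.0 CPM in p16+ and 321 ± 29.5 CPM in p16- cells (edgeR adjusted p = 0.362). Apoe, an apolipoprotein gene named after its values were seen, was above it in p16- cells, with 233 ± 16.8 CPM in p16+ and 376 ± 122 CPM in p16- cells, without overlap (log2 fold change -0.69, edgeR adjusted p = 0.0716). It was called lower with the block (edgeR adjusted p = 0.00541) and without p16- replicate 2 (edgeR adjusted p = 2.57e-05).

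Among cholesterol synthesis and uptake genes, Scap and Mvd rose and Sc5d fell. Of 22 tested, 2 rose, 1 fell and 19 did not pass, near the 16.7% called over all genes tested, and the median log2 fold change was -0.07. With library sizes alone 1 rose and 2 fell, as Mvd was lost (edgeR adjusted p = 0.0765) and Insig1 was called lower (edgeR adjusted p = 0.0408). Sc5d, a late enzyme of the pathway, fell to 17.6 ± 1.07 CPM in p16+, against 25.4 ± 2.39 CPM in p16- cells (edgeR adjusted p = 0.00394). Scap, the escort protein gene of the sterol response factors, rose to 60.9 ± 2.97 CPM in p16+, against 46.4 ± 3.7 CPM in p16- cells (edgeR adjusted p = 0.00412), and 13.2% of its exonic length is overlapped on the opposite strand. Mvd, the mevalonate decarboxylase gene, rose, barely past the threshold, to 6.62 ± 0.575 CPM in p16+, against 4.29 ± 0.767 CPM in p16- cells (edgeR adjusted p = 0.048). Its call was lost when any single library other than p16- replicate 3 was left out (edgeR adjusted p = 0.0658 to 0.153). Srebf2, the main transcription factor of the pathway and the most abundant of the list, had 91.4 ± 3.53 and 95.4 ± 6.38 CPM in p16+ and p16- cells (edgeR adjusted p = 0.657).

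Of 14 tested genes of sphingomyelin synthesis, the lipid to which human ABCA8 has been linked in oligodendrocytes, 0 passed by edgeR, with 2 at an unadjusted p under 0.05 and 1 called by DESeq2. Over all genes tested 16.7% were called by edgeR. The list's count moved with the processing, as given below, and is not read as an absence of change. Degs1, the dihydroceramide desaturase gene and the most abundant over both groups, had 114 ± 0.782 CPM in p16+ and 119.6 ± 7.21 CPM in p16- cells (edgeR adjusted p = 0.621), while in p16- cells alone Cers2, a ceramide synthase gene, was above it at 122 ± 2.63 CPM. The gene called by DESeq2 was Sgms2, a sphingomyelin synthase gene named after its value was seen, with 47.4 ± 5.22 CPM in p16+ and 38.7 ± 2.8 CPM in p16- cells (edgeR adjusted p = 0.0537, DESeq2 adjusted p = 0.0458).

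**Figure D4:**
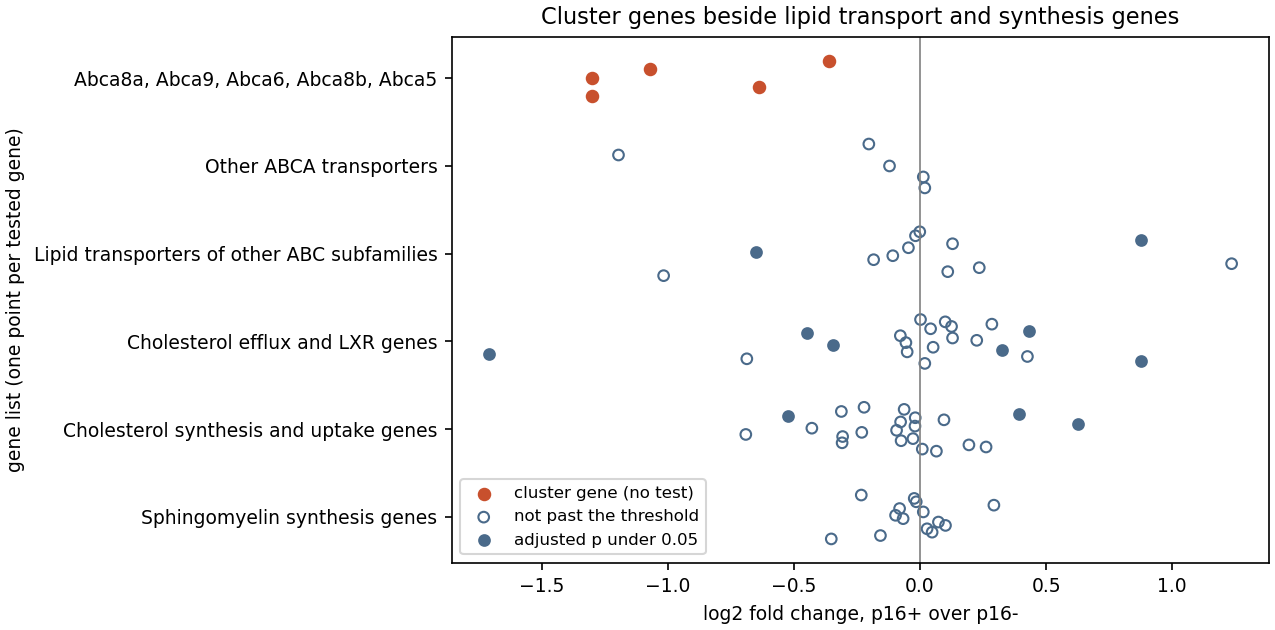
Log2 fold change (p16+ over p16-) of the 5 cluster genes, which carry no test, beside the tested genes of 5 lists of lipid transport and synthesis, with 1 point per gene. Filled blue points passed the threshold of 0.05 on the adjusted p; the cluster genes all lie below 0, while each of the other lists has points on both sides of 0.

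The genes most like the cluster in pattern over the 6 libraries were found by distance. Each gene's log2 CPM was centred on its own mean, and the root-mean-square distance to the mean of the 5 members was taken over 6 libraries, among 10508 genes with a mean log2 CPM of at least 2. These genes leave out the members and gene models without a name of their own (Gm numbers and Rik). The mean of the members was -0.39, -0.57 and -0.44 in p16+ replicates 1, 2 and 3, against 0.34, 0.51 and 0.55 in p16- replicates 1, 2 and 3 (centred log2 CPM). The 8 nearest genes were Mturn, Eya4, Glul, Ston2, Bmp2, Hmcn2, C1qtnf1 and Antxr2, at distances of 0.043 to 0.076 log2 units. They are all lower in p16+ cells because the distance selects for it.

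Mturn, which encodes a regulator of neural progenitor differentiation, was nearest, with 41.4 ± 3.46 CPM in p16+ and 79.1 ± 4.1 CPM in p16- cells (SD, n = 3 each). Eya4, a transcriptional coactivator gene, had 8.07 ± 0.99 CPM in p16+ and 15.5 ± 1.43 CPM in p16- cells, and Ston2, an endocytic adaptor gene, 20.2 ± 2.44 and 36.8 ± 1.68 CPM. Glul, the glutamine synthetase gene, had 242 ± 9.05 CPM in p16+ and 465 ± 27.6 CPM in p16- cells. Bmp2, a bone morphogenetic protein gene, had 15.5 ± 1.03 CPM in p16+ and 29.7 ± 3.38 CPM in p16- cells. Hmcn2, which encodes the matrix protein hemicentin 2, and Antxr2, an anthrax toxin receptor gene that binds matrix, had 441 ± 25.4 and 253 ± 23.6 CPM in p16+ and 776 ± 91.9 and 446 ± 40 CPM in p16- cells. C1qtnf1, a gene of a secreted protein related to complement C1q, is on the same chromosome but far from the cluster, at 118428203 to 118449963. The members themselves lay at 0.099 for Abca8b, 0.179 for Abca9, 0.193 for Abca6, 0.201 for Abca8a and 0.308 for Abca5 from their own mean. By Pearson correlation in place of distance, 1 of the 8 genes was again among the nearest 8.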

How the data were processed

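RNA of 6 libraries was sequenced from both ends, 50 bases each, from an unstranded kit, per the labels' protocols. The authors deposited counts, in whole numbers of fragments for each gene, from featureCounts 1.6.0 and the GENCODE vM21 exons, per the file headers. The command sets nothing for strand, for genes that overlap or for reads with several alignments, so fragments shared by near-identical genes may be lost. The submitters' processing notes name bcl2fastq, STAR 2.7.3a and GRCm38.p6. All 55536 identifiers and positions matched vM21.

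Computed here were TMM factors, filterByExpr at its defaults, the quasi-likelihood test with group alone as the term (glmQLFit robust, glmQLFTest, edgeR 4.0.16, R 4.3.3), CPM on effective library sizes, log2 CPM with a prior count of 2, and FPKM from the exonic length in the files. Fold changes are p16+ over p16-, and the given n of 3 means libraries. Coding sequences, from the longest one per gene, were aligned with MAFFT 7.526. The test was also run on simulated counts with independent libraries, which cannot show whether the real libraries were paired or came from separate animals. Alternatives were RLE and upper-quartile factors, library sizes alone, no filter, CPM of at least 1 in 3 libraries, DESeq2 1.42.0, the replicate number as a block, and leaving out each library.

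The 5 members, the lists and the motifs were chosen with earlier results of these data known, and the E-box with the promoters seen. Named genes are the members, Cdkn2a, the tested neighbours, up to 4 called genes with the smallest p and the most abundant gene of each list, and the 8 genes most like the members in pattern. Outside this rule, and after their values were seen, Col3a1, Col1a1, Dpt, Pi16, Tek, Des, Abca2, Abca3, Abca4, Abca7, Lipa, Nr1h3, Apoe, Insig1, Cers2, Sgms2 and Sptssa were also named.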

Additional observations from a re-analysis of the deposited data

How the results depend on the processing

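The median log2 fold change of the 5 cluster genes stayed between -1.17 and -0.98 under all 13 alternatives, and each gene kept its direction in all of them, with Abca5 at -0.44 to -0.25, Abca9 at -0.72 to -0.55, Abca8b at -1.17 to -0.98, Abca8a at -1.38 to -1.21 and Abca6 at -1.38 to -1.27. With library sizes alone 36% of the 2941 genes called were higher in p16+, in place of 52% of 2660, and the median of all genes was -0.08. Without 1 library 1887 to 2567 genes were called.

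Of the neighbours 1 to 3 were called without 1 library, 3 with library sizes alone (Gna13 added, lower), 3 by DESeq2 (Prkar1a added, higher) and 4 with the replicate block (both added). Of the sphingomyelin genes 1 was called with library sizes alone (Sptssa, lower), without the filter, with the stricter filter and by DESeq2 (Sgms2, higher), 2 with the replicate block, and 0 to 2 without 1 library. Of the other ABCA genes 0 to 1 was called without 1 library. The cause was not tested.

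The sign of genes that did not pass turned for Abca1 with library sizes alone (-0.055), and without 1 library for Abca1 (-0.061 to 0.146), Arsg (-0.24 to 0.10), Map2k6 (-0.35 to 0.001) and Slc16a6 (-0.36 to 0.18). Same-numbered libraries hardly deviated together, with r of 0.03, 0.08 and -0.005 for replicates 1, 2 and 3. Of all pairs across the groups, that of replicate 2 was the highest. Not every library correlated best with its own number, so the labels' numbers were not taken as pairs. The replicate block called 3114 genes, more than the 2660 called without it. These values do not settle whether the libraries were paired.

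Counting depth limits Abca4 and other genes with low counts more than the cluster genes, which had 873 to 23640 counts in each library.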
